A study of Mus musculus with 12 samples.

Results

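The transcriptome of undifferentiated mouse embryonic stem (ES) cells at rest was described from the 3 arrays of wild type E14 cells labelled as grown with leukaemia inhibitory factor (LIF), chosen by their sample titles from the 12 arrays of the study. E14 is a male mouse ES line derived from strain 129/Ola. The cultures grew without feeders on gelatin-coated plates in medium with fetal calf serum, a culture that holds ES cells undifferentiated as long as LIF is present. The labels put these arrays at Day 0 and also carry the agent 4-hydroxytamoxifen (OHT), which the protocols give as 1 uM for 16 h to activate a CreER recombinase. OHT stands on all samples, and whether the wild type cells carried conditional Hdac1 and Hdac2 alleles is not given in the sources used here. The 3 other groups had 3 arrays each: wild type cells without LIF for 4 days, and cells at Day 4 with the genotype HDAC1-/-; HDAC2-/wt, with and without LIF. The labels do not say that the 3 arrays came from separate cultures, so the spread between them may be technical.

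The deposited tables disagreed on which arrays had LIF. The table keyed by sample, whose values and names were used here, and the table of non-normalized intensities with detection p-values held the same arrays under different names. Each of the 12 columns had exactly the rank order of a column of the other table (Spearman's rho 1, and 0.836 or less with the rest). The 2 names of an array gave the same genotype in 12 of 12 cases and the same culture in 0 of 12. Under the numbering of the second table the 3 arrays described here would be wild type cells without LIF, and every difference between the 2 wild type groups below would change sign. The naming by sample was kept throughout, and detection p-values were taken from the columns matched by rank order.

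ES cells are kept pluripotent by a network of transcription factors centred on Pou5f1 (Oct4), Sox2 and Nanog, with a second layer of naive factors such as Esrrb, Klf4, Tfcp2l1 and Zfp42 that mark the state before implantation. LIF binds the receptor Lifr with its partner Il6st (gp130), activates JAK kinases and the transcription factor Stat3, and Stat3 sustains several of the naive factors as well as its own inhibitor Socs3. ES cells divide fast, with a short G1 phase, and have an open chromatin in which developmental genes are held silent but available.

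The signal was a bead array intensity, given as log2 after background correction and normalization, and each gene was represented by the brightest of its probes over the 3 arrays. A gene counts as detected where the detection p of that probe was under 0.05 on all 3 arrays. Of 19057 genes, 7805 (41.0%) were detected, 3339 (17.5%) were detected on 1 or 2 arrays and 7913 (41.5%) on none. Detected genes had a median log2 signal of 8.26, with quartiles of 7.39 and 9.47, against 6.19 for genes detected on 0 arrays. Signals were over 10 for 1341 detected genes, over 12 for 245 and over 14 for 42. A probe's brightness depends on the probe as well as on the amount of RNA, so the ranking orders probe signals and gives no ratio between 2 genes. The arrays also saturate towards the top of the scale, where the highest normalized value was 15.10.

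Raw median intensities of the 3 arrays were 142, 97.5 and 216, and 14872, 16867 and 15311 probes were detected on them. Log2 values of all 45281 probes correlated at 0.969 to 0.979 between the arrays, and the SD of a detected gene over the 3 arrays had a median of 0.16. At the edge of detection the signals overlapped: the 100 genes just inside had a median of 6.75 (6.60 to 7.75) and the 100 just outside a median of 6.71 (6.56 to 7.15).

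Of the 100 brightest genes, 34 encode cytosolic ribosomal proteins. Rps29, a protein of the small ribosomal subunit, read 14.87, 14.82 and 15.10 on the 3 arrays and ranked highest. Of the 25 brightest genes, 13 encode cytosolic ribosomal proteins (Rps29, Rpl41, Rplp1, Rpl38, Rpl9, Rpl37, Rps12, Rps2, Rpl23, Rpl10a, Rpl27a, Rps19 and Rpl3), and Eef1a1 and Eef1g encode elongation factor subunits. 4 others (H2ac24, H2ac7, H2ac20 and H2ac10) encode histone H2A, which dividing cells make in S phase, and their near-identical copies cannot be told apart by a short probe. The remaining 6 were Dppa5a, the cytokine Mif, the RNA-binding protein Ybx1, the prolyl isomerase Ppia, the ATP synthase subunit Atp5b and the tubulin Tuba1b. All 25 lay between 14.38 and 14.93. The order among them is not settled by these data: Rpl41 read 15.04, 15.07 and 14.44, a range that spans most of the 25.

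Dppa5a, an RNA-binding protein of pluripotent cells, was the only gene among the 25 brightest that belongs to the pluripotency lists. It read 14.97, 14.87 and 14.76 and ranked 2 of 19057.

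**Figure D1:**
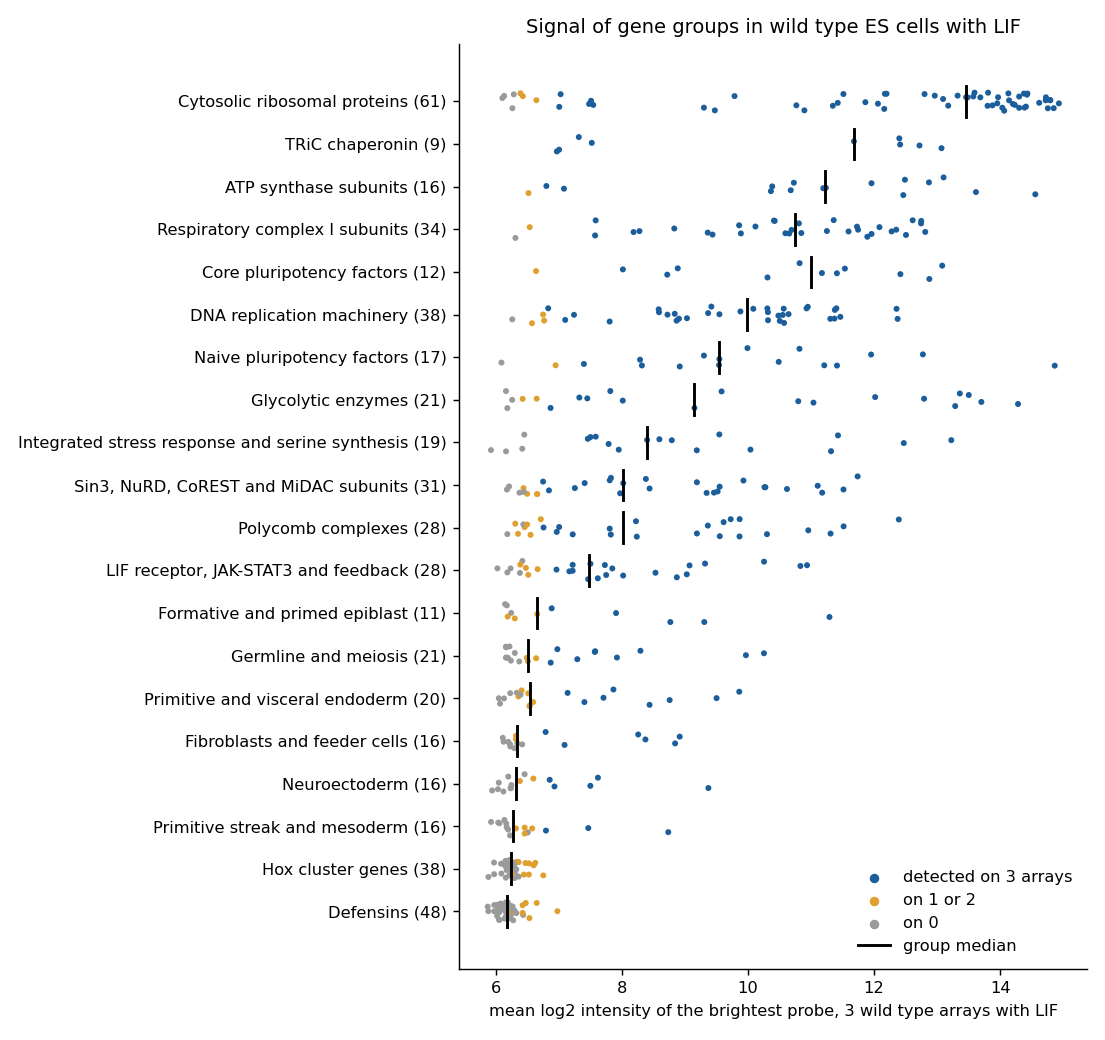
Mean log2 intensity of the brightest probe of each gene over the 3 wild type arrays with LIF (horizontal axis), in 20 gene groups with the number of measured genes in brackets. Each point is 1 gene, coloured by the number of arrays that detected it, and the bar is the median of the group. Ribosomal protein genes have the highest median, 13.46, and the medians of the Hox, defensin and lineage groups shown lie near the floor of detection.

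Core pluripotency factors were detected for 11 of 12 measured genes, against 41.0% of all genes. Pou5f1, the POU factor that defines the pluripotent lineage, read 11.11, 11.29 and 11.12. Nanog, the homeobox factor that stabilises self-renewal, read 12.46, 12.42 and 12.37. Sox2, the partner of Pou5f1 on DNA, was dimmer at 7.92, 8.47 and 7.66. Of these 3 genes, Nanog varied least between the arrays and Sox2 most.

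The other core members covered a wide range of signal. Trim28, the corepressor that silences retroviral repeats, averaged 13.08 ± 0.41 (SD, n = 3, as for all errors of levels below). Dnmt3l, the cofactor of de novo DNA methylation, averaged 12.88 ± 0.12. Sall4, a zinc finger factor of the same network, averaged 11.54 ± 0.04, and Fbxo15, an F-box protein regulated by Pou5f1 and Sox2, 11.41 ± 0.09. Tdgf1 (Cripto), the Nodal coreceptor, averaged 10.82 ± 0.10 and the chromatin protein Utf1 10.31 ± 0.36. Zfp296 averaged 8.89 ± 0.40, and Lin28a, which blocks maturation of let-7 microRNAs, 8.72 ± 0.40. Its relative Lin28b, at 6.64 ± 0.28, was detected on 1 array only.

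Naive factors were detected for 15 of 17 measured genes. Esrrb, an orphan nuclear receptor, read 12.66, 12.84 and 12.82 and ranked 124. Zfp42 (Rex1), a classical marker of undifferentiated ES cells, read 10.78, 11.64 and 11.82, and Klf4, a direct Stat3 target, read 9.21, 9.86 and 9.56. Both were lowest on the first array. The developmental pluripotency genes Dppa4 (11.95 ± 0.12), Dppa3 (8.32 ± 0.21) and Dppa2 (8.29 ± 0.51) were all detected, Dppa4 the brightest of them. Tfcp2l1, a Stat3 target, averaged 11.21 ± 0.21. Of the Krüppel-like factors, Klf5 averaged 10.82 ± 0.41 and Klf2 10.49 ± 0.36. Tcl1, a coactivator of AKT kinase, averaged 9.99 ± 0.12, the T-box factor Tbx3 9.30 ± 0.13, and Nr5a2, an orphan nuclear receptor bound at the Pou5f1 gene, 8.92 ± 0.17. Gdf3, a TGF-beta family ligand, averaged 9.54 ± 0.50. Prdm14, a repressor of the primed state, was the dimmest detected member at 7.40 ± 0.07. Fgf4, the autocrine growth factor that primes ES cells for differentiation, read 7.41, 7.04 and 6.40 and was detected on 2 of the arrays. Nr0b1 (Dax1), an X-linked nuclear receptor usually listed with these factors, was at 6.09 ± 0.10 and detected on none of the study's 12 arrays, with 1 probe.

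The LIF pathway was detected for 19 of 28 measured genes, but its ligands and its receptor were near the floor. Lif (6.42 ± 0.09), Il6 (6.03 ± 0.22) and Osmr (6.39 ± 0.11), the oncostatin M receptor, were detected on 0 arrays. Lifr itself, with 3 probes, read 6.29, 6.80 and 6.47 and was detected on 1 array, as were the cytokine Osm (6.48 ± 0.25) and the receptor Il6ra (6.39 ± 0.21). Il6st, the shared signalling chain, was detected on all 3 at 7.33, 7.45 and 7.74.

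Below the receptor, most of the pathway was detected. The kinase Jak1 averaged 9.08 ± 0.41, Tyk2 8.53 ± 0.12, Jak2 7.47 ± 0.14 and Jak3 7.17 ± 0.14. Stat3 read 8.98, 9.08 and 8.56 and was the brightest of the STAT probes, followed by Stat4 (8.02 ± 0.25), a factor better known from T cells, Stat6 (7.22 ± 0.06) and Stat2 (7.22 ± 0.17). Stat5a (6.67 ± 0.30) was detected on 2 arrays and Stat5b (6.19 ± 0.10) on none. The brightest members were feedback and effector genes. Socs3, the inhibitor that Stat3 induces, read 10.93, 11.01 and 10.56, the kinase Pim3 averaged 10.94 ± 0.15, and Ptpn11 (Shp2), the phosphatase that links the receptor to ERK, 10.26 ± 0.19. Other inhibitors were Socs2 (9.32 ± 0.20), Cish (7.85 ± 0.32) and the SUMO ligases Pias1 (9.03 ± 0.02), Pias3 (7.75 ± 0.24), Pias2 (7.73 ± 0.37) and Pias4 (7.62 ± 0.07). Pim1 was dim but detected (6.97 ± 0.22), and Socs1 was not (6.24 ± 0.32).

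**Figure D2:**
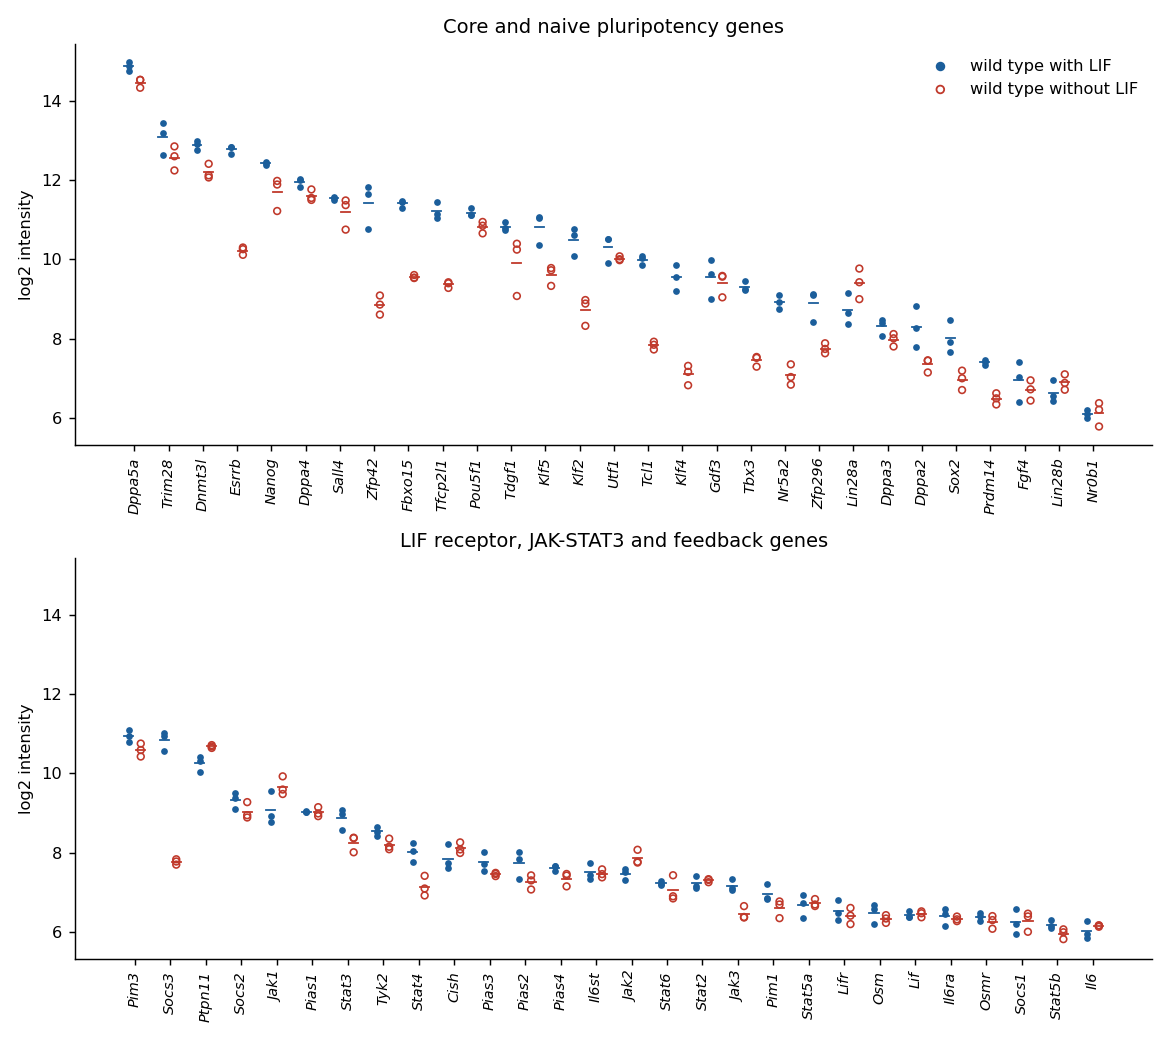
Log2 intensity (vertical axis) of every measured core and naive pluripotency gene (upper panel) and LIF pathway gene (lower panel), with 1 point per array and a short line at the group mean, for wild type cells with LIF (filled) and without LIF (open), genes ordered by the mean with LIF. Esrrb, Zfp42, Klf4, Tcl1 and Socs3 are separated between the groups, while Lifr, Lif and Nr0b1 lie near the floor in both.

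Genes of the next stage were detected at a share near that of all genes (45.5% beside 41.0%). Of 11 measured genes of the formative and primed epiblast, the state that follows the naive one, 5 were detected: the methyltransferase Dnmt3b (11.29 ± 0.28), Tcf15 (9.31 ± 0.29), Otx2 (8.77 ± 0.24), Pou3f1 (7.91 ± 0.20) and Sall2 (6.89 ± 0.11). Fgf5, the standard marker of primed epiblast, was at 6.25 and detected on 0 arrays, as were Dnmt3a (6.15) and Foxd3 (6.18). Of 7 genes listed for the 2-cell-like state, a rare and transient state of ES cultures, 5 were detected. They were Zscan4c (8.53 ± 0.17), Tcstv3 (8.09 ± 0.13), Tcstv1 (7.99 ± 0.05), Tmem92 (7.24 ± 0.20) and Eif1a (10.35 ± 0.19). Eif1a is the gene of a general translation initiation factor, so its signal cannot be assigned to this state. The Zscan4 and Tcstv genes exist in near-identical copies, so their probes may read the family. Zfp352 (6.33) was detected on 0 arrays. In a whole culture, a few cells with much RNA and many cells with little cannot be told apart.

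Cell type markers, chosen with earlier results of these data known, were read next. All 9 ES cell markers were detected, between 8.02 and 14.87. Nr0b1 and Epcam, which were not detected, are not among the 9. Of the defining markers of other cells, 0 of 7 for primitive and visceral endoderm, 0 of 4 for mesoderm, 0 of 3 for blood and 0 of 3 for muscle were detected on all 3 arrays. The collagen genes Col1a1 (6.11) and Col1a2 (6.13) and the matrix gene Postn (6.20), abundant in feeder fibroblasts, were detected on 0 arrays. The exceptions were Thy1 (8.85 ± 0.25) and Twist1 (6.79 ± 0.26) among 6 fibroblast markers, Pecam1 (8.54 ± 0.28) and Tek (7.62 ± 0.11) among 3 endothelial markers, Dazl (7.58 ± 0.29) and Ddx4 (6.87 ± 0.26) among 3 germ cell markers, Nes (6.93 ± 0.32) among 3 neuroectoderm markers and Krt7 (7.84 ± 0.19) among 4 trophoblast markers. Pecam1 is known on ES cells as well as on endothelium. The data do not go against the label of ES cells. Detection of the 9 markers cannot tell whether the cells were undifferentiated, because they also carried signal without LIF. There Klf4 read 6.83, 7.16 and 7.31 and Sox2 6.71, 7.00 and 7.19. The lowest detected signals of those arrays were 6.56, 6.60 and 6.48.

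A gene that was not detected cannot be read as absent, because some genes that all dividing cells need were not detected either. Of 61 cytosolic ribosomal protein genes, 54 were detected, with a median over all 61 of 13.46. Rps23 (6.29), Rpl6 (6.27), Rps20 (6.14) and Rpl17 (6.11), each with 1 probe, were detected on 0 of the 3 arrays. The same held for the proteasome genes Psma1 (6.06), Psma6 (5.99), Psmc6 (6.44) and Psmd3 (6.22), for Pola1 (6.26), the catalytic subunit of DNA polymerase alpha, and for Ndufs1 (6.31), the largest subunit of respiratory complex I. Epcam (6.06), a surface protein of ES cells, and Ccnb2 (6.06), a mitotic cyclin, were also not detected. Where a gene had several probes they often differed: of 4793 detected genes with more than 1 probe, 2716 (56.7%) had a further probe that was detected on 0 arrays.

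Most genes of the embryonic lineages were not detected, with exceptions. Shares detected ran from 13.3% for definitive endoderm, liver and gut to 31.25% for neuroectoderm, beside 41.0% of all genes. Of 16 genes of primitive streak and mesoderm 3 were detected: the Nodal inhibitors Lefty1 (8.74 ± 0.63) and Lefty2 (7.47 ± 0.59) and the ligand Wnt3a (6.80 ± 0.13). The mesendoderm regulator Mixl1 (6.14), Evx1 (6.51) and Mesp1 (6.20) were detected on 0 arrays. Of 15 genes of definitive endoderm, liver and gut, the homeobox gene Hhex (7.80 ± 0.12) and Foxa3 (7.46 ± 0.10) were detected, while Cer1 (6.27), Foxa1 (6.30) and the albumin gene Alb (5.87) were not. Neuroectoderm genes were detected for 5 of 16, led by Gbx2 (9.37 ± 0.99), a LIF and Stat3 target as well as a hindbrain gene, Sox11 (7.62 ± 0.32) and Map2 (7.50 ± 0.12). Pax6 (6.20), Zic1 (6.05) and Six3 (6.04) were not detected. Among 16 genes of neurons and glia, Stmn2, a microtubule regulator of growing axons, stood at 9.53, 9.92 and 9.78, followed by Olig1 (7.24 ± 0.31) and Slc17a7 (7.02 ± 0.26), while Snap25 (6.18), Syt1 (6.33) and Gad2 (6.23) were not detected.

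Extraembryonic genes were detected in part. For primitive and visceral endoderm 8 of 20 genes were detected (40.0%, near the share of all genes), led by the secreted Sparc (9.86 ± 0.12), Apoe (9.50 ± 0.12) and the laminin Lama1 (8.76 ± 0.07). The regulator Gata4 (6.34), the receptor Pdgfra (6.40) and Foxa2 (6.05) were detected on 0 arrays. For trophoblast 11 of 19 were detected, led by Tfap2c (10.84 ± 0.19), a factor of trophoblast and germ cells, and the simple epithelial keratins Krt8 and Krt18 (9.52 ± 0.39). Krt8 read 9.81, 10.42 and 11.11, a spread of more than 1 log2 unit between arrays. Cdx2 (6.42) and Hand1 (6.06), which specify trophoblast, and the placental Prl2c2 (6.17) were not detected.

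Muscle genes were detected for 4 of 14 (28.6%, beside 41.0% of all genes), and 2 of them brightly. Mylpf, the regulatory light chain of fast skeletal myosin, read 10.05, 10.28 and 10.43, and Acta1, skeletal alpha-actin, read 8.80, 8.71 and 9.15. The muscle regulators Myod1 (5.85) and Myf5 (5.88) and the muscle creatine kinase Ckm (5.97) were detected on 0 arrays. Des followed at 7.41 ± 0.35. The Acta1 probe is open to cross-hybridisation with other actins. Of 8 epidermal genes 3 were detected (37.5%), near the 41.0% of all genes. Tgm1, the transglutaminase of the cornified envelope, averaged 8.33 ± 0.11, Krt10 7.67 ± 0.06 and Lor 6.70 ± 0.16. Krt5 (6.12), Krt1 (6.37) and Ivl (5.97) were not detected.

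Germline and meiosis genes were detected for 9 of 21 (42.9%), near the 41.0% of all genes. Tex19.1, which restrains retrotransposons in germ cells, read 10.00, 10.30 and 10.47. Stag3 (9.97 ± 0.25) and Rec8 (8.30 ± 0.41), subunits of the meiotic cohesin ring, were also detected. The synaptonemal complex genes Sycp1 (6.38), Sycp2 (6.17) and Sycp3 (6.24) were detected on 0 arrays.

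Genes of fibroblasts, blood and endothelium were also read. Fibroblast genes were detected for 6 of 16 (37.5%), near the 41.0% of all genes. Fibronectin, Fn1 (8.92 ± 0.01), Thy1 and the filament gene Vim (8.38 ± 0.29) led them. Blood genes were detected for 2 of 13, H2-Ab1 (7.35 ± 0.36) and Cd74 (6.91 ± 0.18), and Ptprc (6.35), Itgam (5.88) and Lyz2 (6.26) for none. Endothelial genes were detected for 4 of 8 (50%), near the share of all genes, led by Pecam1, Tek and Vwf (7.44 ± 0.23). The endothelial cadherin Cdh5 (6.27) and the VEGF receptor Kdr (6.17) were detected on 0 arrays.

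The receptor families of sensory organs and the body plan genes were at the floor. Of 1071 olfactory receptor genes 3 were detected (0.28%): Olfr724 (7.01 ± 0.12), Olfr378 (6.74 ± 0.08) and Olfr538 (6.69 ± 0.06). The count was 8 without the first or without the second array. Of 202 vomeronasal and taste receptor genes and of 48 defensin genes 0 were detected on all 3 arrays, with 17 and 7 on 1 or 2. Of 38 Hox genes, which lay out the body axis and are held silent by Polycomb in ES cells, 0 were detected on all 3 arrays and 10 on 1 or 2, the brightest at 6.76. With the first or the third array left out, 1 Hox gene, 1 vomeronasal or taste receptor gene and 1 or 2 defensin genes were detected on the remaining arrays. Keratins and keratin-associated proteins were detected for 7 of 86, led by Krt8, Krt18 and Krt42 (8.79 ± 0.10), and cytochrome P450 enzymes for 8 of 81, led by Cyp4f13 (8.55 ± 0.29).

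**Figure D3:**
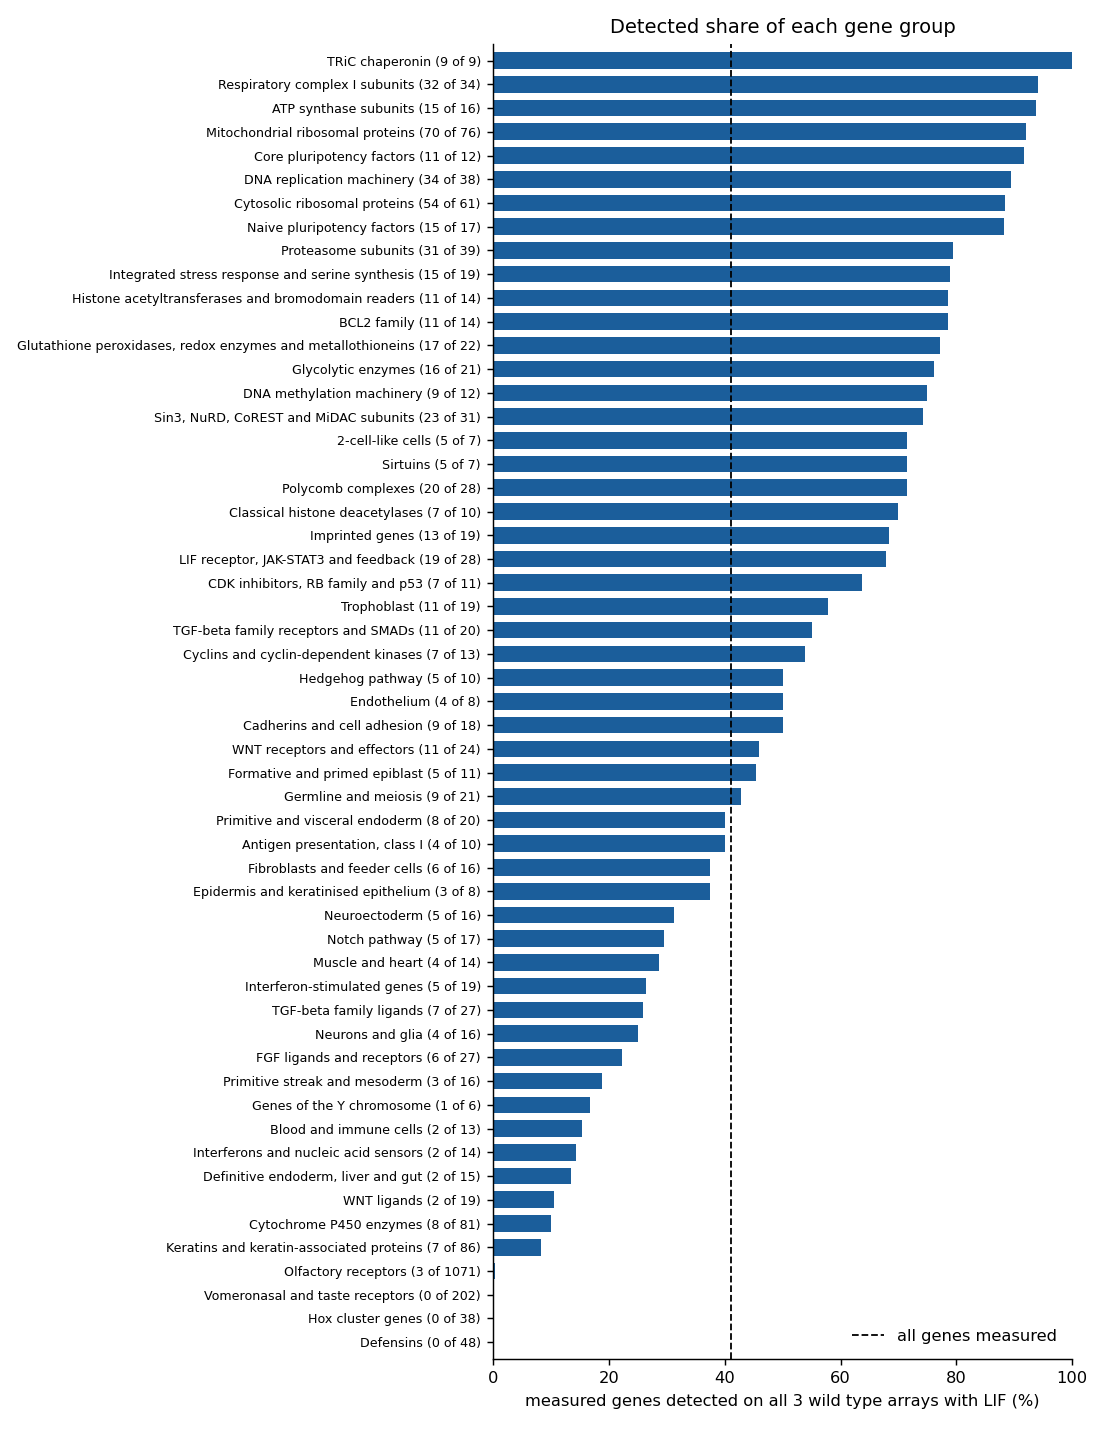
Share of the measured genes of each group detected on all 3 wild type arrays with LIF, in percent, with counts in brackets. The dashed line is the share of all genes, 41.0%. Groups of protein synthesis, energy metabolism, replication and pluripotency lie above it, and WNT, FGF and TGF-beta ligands, most differentiated cell types (not endothelium or trophoblast) and sensory receptors below it.

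Growth and energy genes were mostly detected. Mitochondrial ribosomal proteins were detected for 70 of 76 genes, led by Mrps24 (12.34 ± 0.17), respiratory complex I for 32 of 34, led by Ndufa13 (12.81), and ATP synthase for 15 of 16, led by Atp5b (14.56 ± 0.08). All 9 genes of the TRiC chaperonin, which folds actin and tubulin, were detected, led by Cct6a (13.07 ± 0.09). Proteasome genes were detected for 31 of 39, led by Psma2 (13.07 ± 0.12). Glycolytic enzymes were detected for 16 of 21. Gapdh (14.28 ± 0.10), Ldha (13.70 ± 0.07) and Aldoa (13.50 ± 0.06) were the brightest, and the tissue-restricted Hk3 (6.17), Pgk2 (6.26) and Pklr (6.19), of blood cells, testis and liver, were not detected.

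The cell cycle was represented by its replication genes: 34 of 38 were detected, led by the helicase subunits Mcm5 (12.37 ± 0.02) and Mcm4 (12.36 ± 0.08) and by Gins4 (11.47 ± 0.02). Of 13 cyclins and cyclin-dependent kinases 7 were detected (53.8%, beside 41.0% of all genes), led by Ccnd3 (11.34 ± 0.15), Cdk2 (11.05 ± 0.08) and Cdk4 (10.45 ± 0.04). Ccna2 (6.38), Ccnb2 and Ccnb3 (6.12) were not detected, on 1 probe for Ccna2 and Ccnb2. Of 11 genes of inhibitors and the RB family, 7 were detected (63.6%). Mdm2, the ubiquitin ligase of p53, averaged 10.59 ± 0.30, Cdkn1c (p57) 10.37 ± 0.32 and Cdkn1a (p21) 9.09 ± 0.29, while Cdkn2b (6.25) and Rbl2 (6.31) were not detected. The BCL2 family was detected for 11 of 14, led by the survival factor Mcl1 (11.45 ± 0.03) and the p53 target Bbc3 (Puma, 10.06 ± 0.33). Bcl2 (6.29), Bcl2l1 (6.42) and Hrk (6.32) were not detected.

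The deacetylases that the study deletes were measured in part, since Hdac1 was not analysed here. Of 10 classical histone deacetylase genes 7 were detected. Hdac2, of class I, read 11.45, 11.24 and 11.44 and was the brightest. Hdac3, the catalytic subunit of the NCoR complex, averaged 9.94 ± 0.06. The class II enzymes followed, with Hdac5 at 8.42 ± 0.05, the cytoplasmic tubulin deacetylase Hdac6 at 8.15 ± 0.18, Hdac4 at 7.68 ± 0.18 and Hdac7 at 6.83 ± 0.10, and the class I Hdac8 at 6.74 ± 0.08. Hdac11 (6.85 ± 0.42) was detected on 2 arrays, Hdac10 (6.48 ± 0.50) on 1 and Hdac9 (6.32 ± 0.12) on none. Sirtuins, the other deacetylase family, were detected for 5 of 7, led by Sirt3 (8.68 ± 0.22), Sirt7 (8.56 ± 0.08) and Sirt1 (8.38 ± 0.53).

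Of 31 genes for subunits of the complexes that hold Hdac1 and Hdac2, 23 were detected. The brightest were the CoREST demethylase Kdm1a (11.74 ± 0.14) and the Sin3 subunits Sap30 (11.52 ± 0.12) and Sin3a (11.18 ± 0.12). Sap18 (6.18), Ing1 (6.21) and Rcor3 (6.38) were not detected. Acetyltransferases and bromodomain readers were detected for 11 of 14, with Hat1, which acetylates new histone H4, at 13.64 ± 0.04, Kat6b at 10.41 ± 0.05 and Brd2 at 10.27 ± 0.08. Polycomb genes were detected for 20 of 28, led by Phc1 (12.39 ± 0.02), Mtf2 (11.52 ± 0.23) and Suz12 (11.31 ± 0.15), with Jarid2 (6.44) and Phf1 (6.19) on 0 arrays. The DNA methylation machinery was detected for 9 of 12, led by Dnmt3l, the maintenance factor Uhrf1 (11.84 ± 0.20) and Dnmt3b, with Trdmt1 (6.48) and Dnmt3a (6.15) on 0 arrays.

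Of the signalling pathways, a minority of the ligands was detected, beside 41.0% of all genes. WNT ligands were detected for 2 of 19, Wnt7b (7.59 ± 0.17) and Wnt3a (6.80 ± 0.13), a count that was 4 or 5 with any 1 of the 3 arrays left out, with Wnt1 (6.16), Wnt2 (6.24) and Wnt3 (6.23) on 0 arrays. WNT receptors and effectors were detected for 11 of 24 (45.8%), near the share of all genes. Beta-catenin, Ctnnb1 (11.90, 11.76 and 11.90), the receptor Fzd5 (9.57 ± 0.45) and the scaffold Axin1 (9.35 ± 0.04) led them. Fzd1 (6.15), Fzd4 (6.17) and Fzd8 (6.21) were detected on none. TGF-beta family ligands were detected for 7 of 27, led by Nodal (9.99 ± 0.13), Gdf3 and Bmp4 (8.95 ± 0.39), the BMP that acts with LIF in serum-free culture, while Gdf5 (6.04), Gdf6 (6.07) and Gdf9 (6.30) were not. Their receptors and SMADs were detected for 11 of 20, led by Tdgf1, the activin receptor Acvr2b (9.52 ± 0.28) and Tgfbr1 (8.68 ± 0.19), with Acvr1c (6.12), Acvr2a (6.25) and Acvrl1 (6.20) on none.

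FGF ligands and receptors were detected for 6 of 27 (22.2%, beside 41.0% of all genes), led by Fgf17 (8.53 ± 0.50), Fgf13 (7.59 ± 0.23) and the receptor Fgfr2 (7.44 ± 0.52). Fgf2 (6.19) and Fgf3 (6.10) were detected on 0 arrays, as was Fgf5. Notch genes were detected for 5 of 17 (29.4%), led by the target Hes1 (8.75 ± 0.14) and the receptors Notch4 (8.71 ± 0.13) and Notch3 (7.85 ± 0.13). Notch2 (6.04), Dll3 (6.19) and Jag1 (6.28) were detected on none. Hedgehog genes were detected for 5 of 10 (50%), near the 41.0% of all genes. Gli2 (9.26 ± 0.14), Ptch1 (7.94 ± 0.17) and Smo (7.76 ± 0.05) led them, with the ligand Dhh (6.35), the target Gli1 (6.02) and Hhip (6.16) on none.

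Cadherins and other adhesion genes were detected for 9 of 18 (50%), near the 41.0% of all genes. Cldn6 (10.30 ± 0.22), E-cadherin, Cdh1 (10.30 ± 0.10), and Cldn4 (9.22 ± 0.18) led them. Imprinted genes were detected for 13 of 19, led by Phlda2 (10.71 ± 0.19), Cdkn1c and Igf2 (9.92 ± 0.24), whereas Meg3 (6.32), Magel2 (6.24) and Plagl1 (6.36) were not detected.

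Innate immunity was low apart from a few genes. Interferons and nucleic acid sensors were detected for 2 of 14, Mavs (7.87 ± 0.08) and Cgas (7.41 ± 0.04), with Ifnb1 (6.01), Ifna1 (6.43) and Ifna2 (6.18) on 0 arrays. Interferon-stimulated genes were detected for 5 of 19. The membrane proteins Ifitm1 (12.41 ± 0.21), Ifitm2 (12.25 ± 0.11) and Ifitm3 (10.68 ± 0.14) led them, and Ifit1 (6.35), Ifit3 (6.26) and Isg15 (6.16), common readouts of interferon, were not detected. Class I antigen presentation was detected for 4 of 10 genes (40.0%), near the 41.0% of all genes. B2m (9.01 ± 0.09), H2-D1 (8.43 ± 0.12) and Psmb9 (7.89 ± 0.07) led it, with H2-Q10 (6.15) and Psmb8 (6.40) on none.

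Stress and redox genes were often bright. Of 19 genes of the integrated stress response and serine synthesis 15 were detected, led by asparagine synthetase, Asns (13.22 ± 0.26), Psat1 (12.47 ± 0.27) and the factor Atf4 (11.43 ± 0.48). Psph (5.93), which completes serine synthesis, Slc7a11 (6.46) and Eif2ak3 (6.42) were detected on 0 arrays. Redox genes and metallothioneins were detected for 17 of 22, led by the metal-binding Mt1 (14.12 ± 0.04), Prdx1 (13.80 ± 0.04) and Sod1 (13.35 ± 0.12), with Gpx5 (6.42), Gpx6 (6.29) and Mt4 (6.41) on none.

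The sex chromosome genes were compared with the label of a male line. Eif2s3y, a Y-linked translation factor gene, read 9.17, 8.89 and 9.12 and was detected on all arrays. Of the other 5 Y genes measured, Zfy1 (6.51 ± 0.26) and Usp9y (6.49 ± 0.26) were detected on 1 array, and Uty (6.30 ± 0.31), Kdm5d (6.26 ± 0.41) and the testis-determining gene Sry (6.11 ± 0.36) on none. Xist (6.26 ± 0.27), the RNA that coats an inactive X chromosome, was detected on 1 array and its antisense partner Tsix (6.16 ± 0.20) on none. The probes' strands were not analysed here.

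The 3 arrays were not alike for every gene. An SD over 0.5 was found for 116 detected genes (1.49%), and the 5 of highest SD were Egr1, Chac1, Enox1, Lpar6 and Gadd45g. Egr1, an immediate early gene that growth factors and stress induce within minutes, read 7.03, 9.19 and 9.80. Chac1, a glutathione-degrading enzyme induced by Atf4, read 8.61, 10.75 and 10.76. Both were low on the first array and high on the other two. Enox1 (6.68, 8.45 and 8.86) and the receptor Lpar6 (6.64, 7.85 and 8.77) had the same order. Gadd45g, a growth arrest gene, read 10.61, 9.22 and 8.66, the reverse order. For Egr1 and Chac1 a low first array was also seen outside these cells. Without LIF, wild type cells read 6.92, 8.45 and 8.19 for Egr1 and 8.41, 9.61 and 9.46 for Chac1. Cells of the deleted genotype with LIF read 7.66, 9.11 and 8.65 for Egr1 and 8.17, 9.79 and 8.83 for Chac1. Whether arrays of the same number were handled together was not tested.

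A list of immediate early and ERK feedback genes, drawn up after Egr1 had been seen, was then read. Of 23 measured genes 12 were detected (52.2%, beside 41.0% of all genes). Of the 12, 8 were lowest on the first array, as were 35.1% of all detected genes. The median of the 12 was 8.46 on the first array, 9.17 on the second and 9.19 on the third. Dusp6, an ERK phosphatase, read 8.75, 9.84 and 10.48, and the ETS factors Etv4 (8.76, 9.63 and 9.56) and Etv5 (8.83, 9.47 and 9.44) were also lowest there. Ier3 (11.41, 11.40 and 10.71) was not, being lowest on the third array. In wild type cells without LIF both Dusp6 (9.47, 10.80 and 10.70) and Ier3 (10.79, 11.50 and 11.55) were lowest on the first array. With 3 arrays no test was made, and since the list was chosen on these values the count is a description.

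**Figure D4:**
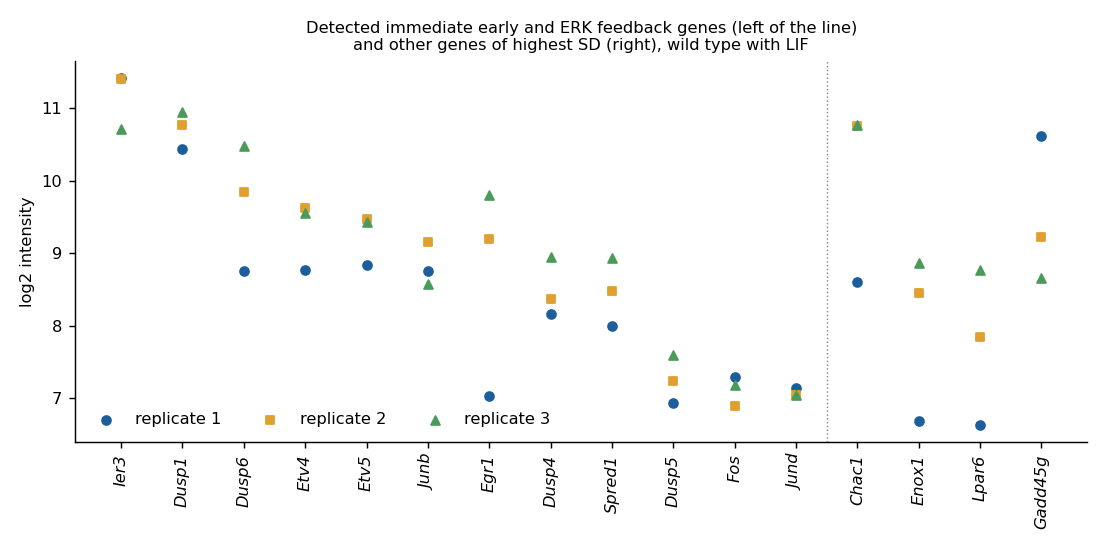
Log2 intensity on each of the 3 wild type arrays with LIF (marker shape and colour) for the 12 detected immediate early and ERK feedback genes, left of the dotted line, and for 4 further genes of high SD, right of it. Egr1, Dusp6, Chac1, Enox1 and Lpar6 are lowest on the first array (circles), and Gadd45g is highest there.

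Promoters of detected and undetected genes differed in base composition. RefSeq promoters (mouse build GRCm38.p6, 250 bases before to 50 after the first listed start of a gene) were matched for 15207 genes. A promoter was counted as CpG-rich where the ratio of observed to expected CG pairs was over 0.6 and G and C made up over 50% of bases. This held for 49.3% of all matched genes, for 72.9% of 6388 detected genes and for 46.4% of 2619 genes detected on 1 or 2 arrays. Among 6200 genes detected on none it held for 26.1%, and for 31.0% without the olfactory, vomeronasal and taste receptor genes, a split added after the values were seen. With genes ordered by signal and divided into 10 equal parts, the share was 19.6% in the dimmest part and 77.9% in the brightest. In contrast, TATAAA on the gene's strand in the 50 bases before the start stood in 3.32% of all promoters, in 1.55% of those of detected genes and in 5.42% of those of genes detected on none. Genes are not independent replicates, and no test was made.

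**Figure D5:**
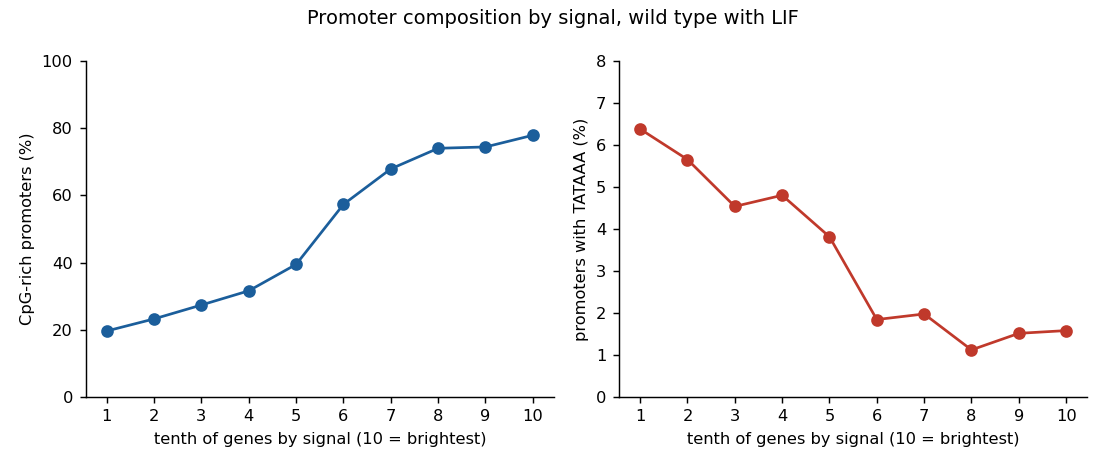
Share of RefSeq promoters that are CpG-rich (left, percent) and that hold TATAAA in the 50 bases before the start (right, percent) in 10 equal parts of the genes ordered by mean signal in wild type cells with LIF, part 10 being the brightest. The CpG-rich share is 19.6% in part 1 and 77.9% in part 10, and the TATAAA share is 6.38% and 1.58%.

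The letters that were counted can be read in example sequences. Windows of 100 bases around the start, 50 on each side, are printed 5′ to 3′ on the gene's strand for 4 bright genes, with CG pairs in capitals.
Rpl38 (chr11:114668530-114668629, plus strand): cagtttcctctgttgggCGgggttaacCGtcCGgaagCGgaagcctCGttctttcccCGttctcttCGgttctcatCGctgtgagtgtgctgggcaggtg
Mif (chr10:75860228-75860327, minus strand): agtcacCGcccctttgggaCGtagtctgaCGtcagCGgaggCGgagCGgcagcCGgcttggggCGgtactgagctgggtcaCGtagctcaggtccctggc
Ybx1 (chr4:119294464-119294563, minus strand): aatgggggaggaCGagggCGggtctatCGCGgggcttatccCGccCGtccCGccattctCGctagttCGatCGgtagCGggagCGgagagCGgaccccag
Ctnnb1 (chr9:120933350-120933449, plus strand): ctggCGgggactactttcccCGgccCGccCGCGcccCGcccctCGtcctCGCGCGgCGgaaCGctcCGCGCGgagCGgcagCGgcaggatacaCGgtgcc

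These windows held 8, 9, 13 and 18 CG pairs in that order. Rpl38 (14.79) shows that the rule is not a measure of signal: its ratio of CG pairs over the 300 bases was 0.628, but G and C made up 49.3%, so it was not counted as CpG-rich. TATAAA stood in only 5.42% of promoters of genes detected on none, so the next 3 windows, which carry it, are examples of a minority. The next 3 genes were detected on 0 arrays, and their windows carry TATAAA, in capitals: the fetal liver secreted protein gene Afp (6.13), the liver fatty acid binding protein gene Fabp1 (5.97) and the epidermal envelope gene Ivl (5.97).
Afp (chr5:90490664-90490763, plus strand): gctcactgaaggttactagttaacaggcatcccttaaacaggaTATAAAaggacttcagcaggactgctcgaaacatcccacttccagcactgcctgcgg
Fabp1 (chr6:71199829-71199928, plus strand): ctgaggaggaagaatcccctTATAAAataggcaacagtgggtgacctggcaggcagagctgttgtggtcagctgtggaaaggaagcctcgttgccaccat
Ivl (chr3:92573686-92573785, minus strand): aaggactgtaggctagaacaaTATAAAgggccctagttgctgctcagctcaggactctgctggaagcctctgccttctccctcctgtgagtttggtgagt

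Their windows held 2, 1 and 0 CG pairs. Among gene groups, 38 of 70 keratin and keratin-associated promoters (54.3%) held TATAAA, and 0 of 907 olfactory receptor promoters were CpG-rich. Ribosomal protein promoters were CpG-rich in 80.0% of 50. Promoters were CpG-rich in 40.0% of 10 core pluripotency genes, in 44.4% of 9 naive factors, of which 22.2% held TATAAA, and in 42.9% of 21 glycolytic enzymes, all below the 49.3% of all genes. TATAAA stood in 5 of the 100 brightest genes, above the share of all genes. A run of at least 8 C or T within the 20 bases around the start, the letters of the start sites of many translation genes, stood in 15 of these 50 (30%), against 7.21% of all promoters. These are letter matches and show no binding.

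The levels were then set beside the wild type arrays without LIF, to see which parts of this transcriptome differ between the wild type cultures. With limma, 9527 genes were tested and 2010 (21.1%) passed an adjusted p of 0.05: 956 (10.0%) were higher with LIF and 1054 (11.1%) lower, of which 135 and 126 by at least 2-fold. Of the higher genes, 161 were not detected on all 3 arrays without LIF. The size of such a difference is limited by the floor of the scale. Of the 7805 genes detected here, 7168 were also detected on all arrays of the 3 other groups, 57 on all 3 arrays of no other group, and 0 were undetected on all 9 other arrays. In the other direction, 272 genes were detected on all 3 arrays of another group and on 0 here.

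The 5 genes with the largest rise were Socs3, Gbx2 and 3 naive factors. Socs3 read 10.93, 11.01 and 10.56 with LIF and 7.83, 7.70 and 7.78 without, a log2 difference of 3.07 ± 0.16 (SE, adjusted p = 4.76e-08, limma). Gbx2 read 8.28, 9.63 and 10.21 with LIF and 6.77, 6.43 and 6.69 without, where it was detected on 2 of 3 arrays (2.74 ± 0.34, adjusted p = 8.17e-05). Neither gene had overlapping groups. Zfp42 was 2.56 ± 0.29, Esrrb 2.55 ± 0.17 and Klf4 2.45 ± 0.22 higher. Klf4 read 9.21, 9.86 and 9.56 with LIF and 6.83, 7.16 and 7.31 without.

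Of 16 naive factors tested, 13 were higher with LIF and 0 lower, against 10.0% of all genes, with a median difference of 1.48 beside 0.00 for all genes. Differences ran from 0.35 for Dppa4 to 2.56 for Zfp42, with Tcl1 at 2.16, Tbx3 at 1.85, Tfcp2l1 at 1.84, Nr5a2 at 1.84, Klf2 at 1.76, Klf5 at 1.21, Dppa2 at 0.94, Prdm14 at 0.91 and Dppa5a at 0.41. Prdm14 was detected on 1 of 3 arrays without LIF, and Dppa5a ranked among the brightest genes, near the top of the scale. The calls of the least changed members rested on single arrays. Dppa4 missed the threshold without replicate 2 or 3 of either group (0.30 to 0.32), Dppa5a without replicate 3 of the cells without LIF (0.34) and Dppa2 without replicate 3 of those with LIF (0.68). Those that missed it with all arrays were Dppa3 (0.34, adjusted p = 0.129), Fgf4 (0.25) and Gdf3 (0.15).

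Of 12 core factors, 4 were higher and 1 lower, beside 10.0% and 11.1% of all genes. Fbxo15 was 1.85 ± 0.13 higher, Zfp296 1.14 ± 0.19, Sox2 1.05 ± 0.18 and Dnmt3l 0.68 ± 0.14, and Lin28a fell by 0.67 ± 0.22. The Lin28a call was lost without replicate 1 or 2 of the cells with LIF, or 2 or 3 of those without (-0.66 to -0.49). Pou5f1 read 11.11, 11.29 and 11.12 with LIF and 10.85, 10.66 and 10.94 without, a difference of 0.36 ± 0.12 that missed the threshold (adjusted p = 0.0502) although the groups did not overlap. Nanog, at 12.46, 12.42 and 12.37 with LIF and 11.22, 11.98 and 11.89 without, did not overlap either (0.72 ± 0.26, adjusted p = 0.0664). Pou5f1 passed on the deposited log2 values (0.35) and Nanog in a fit of the 6 wild type arrays only (0.72). With the replicate number as a block in the fit, both passed (0.36 and 0.72). Tdgf1 (0.91, adjusted p = 0.0597), Trim28 (0.52), Sall4 (0.34), Utf1 (0.29) and Lin28b (-0.26) also missed it. Tdgf1 passed without replicate 2 of the cells without LIF (1.16), Trim28 without replicate 1 of the cells with LIF (0.75) or replicate 3 of those without (0.66), and Utf1 without replicate 1 of the cells with LIF (0.50).

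In the LIF pathway 5 of 21 tested genes were higher and 3 lower, beside 10.0% and 11.1% of all genes. Besides Socs3, those higher were Stat4 (0.88), Jak3 (0.71, detected on 1 of 3 arrays without LIF), Stat3 (0.62 ± 0.15, adjusted p = 0.0113) and Tyk2 (0.34), and those lower were Jak1 (-0.59), Ptpn11 (-0.42) and Jak2 (-0.39). The calls of Socs3, Stat4 and Jak3 held with any of the 6 wild type arrays left out. Stat3 missed the threshold without replicate 2 of the cells with LIF (0.52) or replicate 3 of those without (0.50), and so did Ptpn11 (-0.31 and -0.40). Tyk2 missed it without replicate 1 or 3 with LIF or 2 or 3 without (0.28 to 0.34). Jak1 missed it without replicate 2 or 3 with LIF or 1 or 3 without (-0.62 to -0.43), and Jak2 without any of these or replicate 2 without LIF (-0.45 to -0.29). Lifr (0.11, adjusted p = 0.66) and Il6st (0.03) did not pass.

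The 5 genes with the largest fall were lower with LIF but still detected on all 3 arrays. Gbp2b, an interferon-inducible GTPase, read 6.95, 7.36 and 8.28 with LIF and 9.92, 10.70 and 10.45 without (-2.83 ± 0.28, adjusted p = 1.36e-05). Its relative Gbp2 was -2.66 ± 0.24, and probes of the pair may cross-hybridise. Kif1a, an axonal transport motor, read 8.58, 8.26 and 8.52 with LIF and 11.07, 11.14 and 11.23 without (-2.69 ± 0.12, adjusted p = 3.47e-08). Car4, a carbonic anhydrase, was -2.49 ± 0.14 and Acta1 -2.45 ± 0.29. None of these 5 had overlapping groups.

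Among formative genes 4 of 6 tested were lower with LIF, Otx2 (-1.53), Pou3f1 (-1.38), Dnmt3b (-1.38) and Sall2 (-1.26), and Tcf15 was higher (1.16). Of all genes 11.1% were lower and 10.0% higher. Of 15 imprinted genes tested, 10 were lower and 0 higher, against 11.1% of all genes for lower, with a median of -0.54. The growth factor Igf2 was -0.95 and Cdkn1c -0.86. Of 8 class I antigen presentation genes 6 were lower, B2m (-1.21) and H2-D1 (-0.89) among them. Of 9 histone deacetylases Hdac6 was higher (0.54) and Hdac5 lower (-0.53), and the other 7, Hdac2 (0.20) among them, did not pass. That is 1 of 9 in each direction, near the 10.0% and 11.1% of all genes. Hdac8 (-0.33) passed when the non-normalized intensities were corrected and normalized in another way (-0.63). With the replicate number as a block in the fit, Hdac8 (-0.33) and Hdac11 (-0.54) passed. Of 54 cytosolic ribosomal protein genes 2 were higher and 2 lower, beside 21.1% of all genes that passed in either direction.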

How the data were processed

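Total RNA of 12 samples was measured on Illumina bead arrays of 45281 probes. Per the labels' protocols, it was extracted with Trizol and labelled as biotin cRNA. GenomeStudio is named in the submitters' processing notes with no version, and the normalization is not given in the sources used here. The deposited tables held intensity values on a linear scale and, per the file headers of the non-normalized table, a detection p-value per probe and array. The processed intensities were corrected with normexp (offset 50), converted to log2 and quantile normalized over 12 arrays with limma 3.58.1 in R 4.3.3, tested on simulated data. The number of arrays limits the precision.

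Genes were named for the 34885 probes with 1 symbol; 18 had several and 10378 none. The 34807 IDs found in RefSeq changed 0 symbols. Sequences are RefSeq's, and CG pairs and motifs were counted with Python 3.11.15. For the comparison, limma (lmFit, eBayes, two-sided, Benjamini-Hochberg adjustment) fitted 4 group means to 12 arrays, with 1 brightest probe per gene detected on all 3 arrays of a group; the median SE was 0.13. Detection by array was set against a p of 0.01 and other rules, and the fit against other normalizations, filters and left-out arrays. The alternative from the non-normalized intensities used neqc of limma: background correction from the detection p-values, offset 16, log2 and quantile normalization.

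Members and lists were chosen with earlier results of these data known. Genes named are the 25 brightest, the 3 brightest and the first 3 undetected members of each list, all pluripotency, LIF pathway, deacetylase and sex chromosome genes, the 5 of highest SD and the 5 largest rises and falls; others were chosen after their values were seen. The immediate early list was also chosen then.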

Additional observations from a re-analysis of the deposited data

How the results depend on the processing

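Genes detected numbered 7200 at a detection p under 0.01, 8924 where 2 of 3 arrays sufficed and 7820 where any probe counted. With each array left out they numbered 7918 to 8436, against 7805. List members detected ranged from 573 to 672, against 601. The 25 brightest genes were the same under the deposited values and under the non-normalized intensities after neqc. With each array left out 23 to 24 of them remained, and 14 remained when a gene's probes were averaged. Genes that passed between the wild type groups numbered 2021 on the deposited log2 values and 1909 on the non-normalized intensities after neqc. They numbered 1497 with no detection filter, 1406 with the 6 wild type arrays only and 1350 to 1818 with each array left out, against 2010. With the replicate number as a block in the fit the count rose to 3021, with all 2010 among them. Pou5f1, Nanog, Tdgf1, Trim28, Dppa3, Pim3, Pias2, Pias3, Hdac8 and Hdac11 also passed there. Pairing by number was not settled. Deviations of same-numbered arrays correlated at 0.52, -0.04 and 0.36. Replicate 1 with LIF correlated best with replicate 1 without. Replicate 2 with LIF correlated best with replicate 3 without (0.11), and replicate 3 with replicate 2 (0.47). No direction was reversed. Of 70 named genes tested, 39 passed and 30 of these passed under every alternative run; the 9 others were Dppa2, Dppa4, Dppa5a, Lin28a, Stat3, Tyk2, Jak1, Jak2 and Ptpn11. Cish (-0.44), Pias2 (0.67) and Utf1 (0.50) passed without replicate 1 of the wild type cells with LIF, and Pias3 (0.41) without replicate 3. With the columns taken by their numbers, 7 class I antigen presentation genes and 8 interferon-stimulated genes were detected, against 4 and 5, and 3 neuroectoderm genes, 2 endothelial genes, 4 WNT ligands and 1 Hox gene, against 5, 4, 2 and 0. Detection limits the absences: the lowest detected signals of the 3 arrays were 6.61, 6.51 and 6.59.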

Other observations

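Probes with no gene name carried signal too. Of 10396 probes with none or several gene symbols, 1551 (14.9%) were detected on all 3 wild type arrays with LIF. Of the 10396, 47 averaged over log2 14. The 42 named genes detected at that level were counted by gene, so the 2 counts are not of the same unit. Their genes were not analysed here.

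Detection was spread over the chromosomes. Among those with over 100 genes it was lowest on chromosome X, with 247 of 710 genes (34.8%), and highest on chromosome 5, with 524 of 1103 (47.5%). Of 19 genes on chromosome Y, 1 was detected, and of 8 genes of the mitochondrial genome 6 were.

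Several genes outside the pluripotency lists were also higher with LIF than in wild type cells without it (limma, adjusted over all 9527 genes; chosen after their values were seen). Lama1 read 8.72, 8.72 and 8.84 with LIF and 6.89, 6.78 and 6.72 without (1.96 ± 0.10 SE). Krt42, a type I keratin, was 1.90 ± 0.10 higher, the acetyltransferase gene Kat6b 1.69 ± 0.20, the platelet-type phosphofructokinase Pfkp 1.65 ± 0.13, Mylpf 1.61 ± 0.18 and the mitochondrial superoxide dismutase Sod2 1.12 ± 0.10. Lrp2, an endocytic receptor of visceral endoderm, read 7.23, 7.53 and 8.38 with LIF and 9.46, 9.92 and 9.78 without (-2.01 ± 0.25). Lama1 and Lrp2 are of the list of primitive and visceral endoderm, of which 12 genes were tested. With LIF 1 was higher (Lama1) and 4 were lower, beside 10.0% and 11.1% of all genes. The median of the list was -0.28.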
